A study of Ericerus pela with 8 samples.

Results

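Proteins that are secreted or built into membranes pass through the endoplasmic reticulum (ER), and the transcripts of 28 proteins of that route were followed in Ericerus pela, the Chinese white wax scale, a sap-feeding insect whose adult female is sessile and whose second-instar male secretes wax. The members were the unigenes, short assembled transcript sequences, whose best protein match named a disulfide isomerase, calnexin, calreticulin, a coatomer or Sec subunit (Sec13, Sec23, Sec24, Sec31, Sec61), the translocon, the signal recognition particle, signal peptidase or the oligosaccharyltransferase, with at least 10 reads in 1 library or more. Of 147509 unigenes, 85 matched the names and 71 also met the read minimum. The names and the read minimum compare no libraries, but the set was proposed with earlier results of these data known. The highest count of any match left out was 6 reads, and the member closest to the minimum reached 13 reads. No member was named calreticulin, so the lectin chaperones are calnexins alone.

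RNA was sequenced in 8 libraries, 1 for each of 8 groups: female first-instar larvae, female second-instar larvae, early, middle and late female adults, male first-instar larvae, male second-instar larvae and male adults. The labels give no strain, treatment, age in days or number of insects, and no dissected tissue, and in such RNA fewer cells of a type and less RNA per cell cannot be told apart. With 1 library per group, no difference between 2 groups has a replicate check, and the intervals given for ratios are exact 95% intervals for counting error only. Reads that are not independent molecules would make them wider.

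As background, a growing chain with a signal sequence is caught by the signal recognition particle (SRP), brought to its receptor on the ER membrane and passed through the Sec61 channel, which the translocon-associated proteins (TRAP) accompany. Signal peptidase cuts the signal sequence off, the oligosaccharyltransferase adds a sugar tree to asparagines, calnexin holds sugar-bearing chains while they fold, and disulfide isomerases form and rearrange bonds between cysteines. Folded cargo leaves in vesicles coated with COPII, made of Sec23, Sec24, Sec13 and Sec31, and COPI, the coatomer, carries proteins back from the Golgi. Secreting cells such as insect fat body and glands are known for large amounts of this machinery.

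The libraries held 1461 to 2303 kilo-reads (units of 1000 reads) assigned to unigenes, a range of 1.58 times, and levels are CPM, counts scaled to the library total. At least 69 of the 71 members were read in each library. A level of 3 reads, taken as the detection floor, was 1.30 to 2.05 CPM. Of the members, 66 matched an arthropod protein best, and 5 matched other animals. Most members were pieces of a transcript, 153 to 1158 bases long with a median of 288, and unigenes under the same protein name may be pieces of 1 transcript or close copies, with Sec24 in 10 unigenes and coatomer beta in 8. They were therefore summed per protein and per step of the route, and their number does not replicate a result. On the length-scaled RPKM the authors deposited, the mean over the 8 libraries ranged from 6.43 for a mollusc-matched calnexin (Unigene156579_FOB) to 459 for TRAP gamma (Unigene133787_FOB), with a median of 93.4.

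The adult male had the lowest summed level of the route and the late female the highest. The 71 members together had 2413 and 2946 CPM in first- and second-instar females, 2453, 2897 and 3990.1 CPM in early, middle and late adult females, 2850.4 and 2785 CPM in first- and second-instar males and 1145 CPM in adult males. In the 7 other libraries the sum lay between 2413 and 3990 CPM, and in adult males it was 0.411-fold (0.391 to 0.432) the level of second-instar males. The median member stood at 9.78 CPM in adult males and at 25.7 to 42.9 CPM elsewhere. Of the 71 members, 62 (87.3%) had their lowest level in adult males, against 45.5% of the unigenes with a protein match and at least 10 reads in a library. With TMM scaling, which rescales the library totals so that most unigenes are level, the count was 51 (71.8%) against 31.7%. The late female held the highest level of 48 members (67.6%), against 21.8% of matched unigenes.

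**Figure D1:**
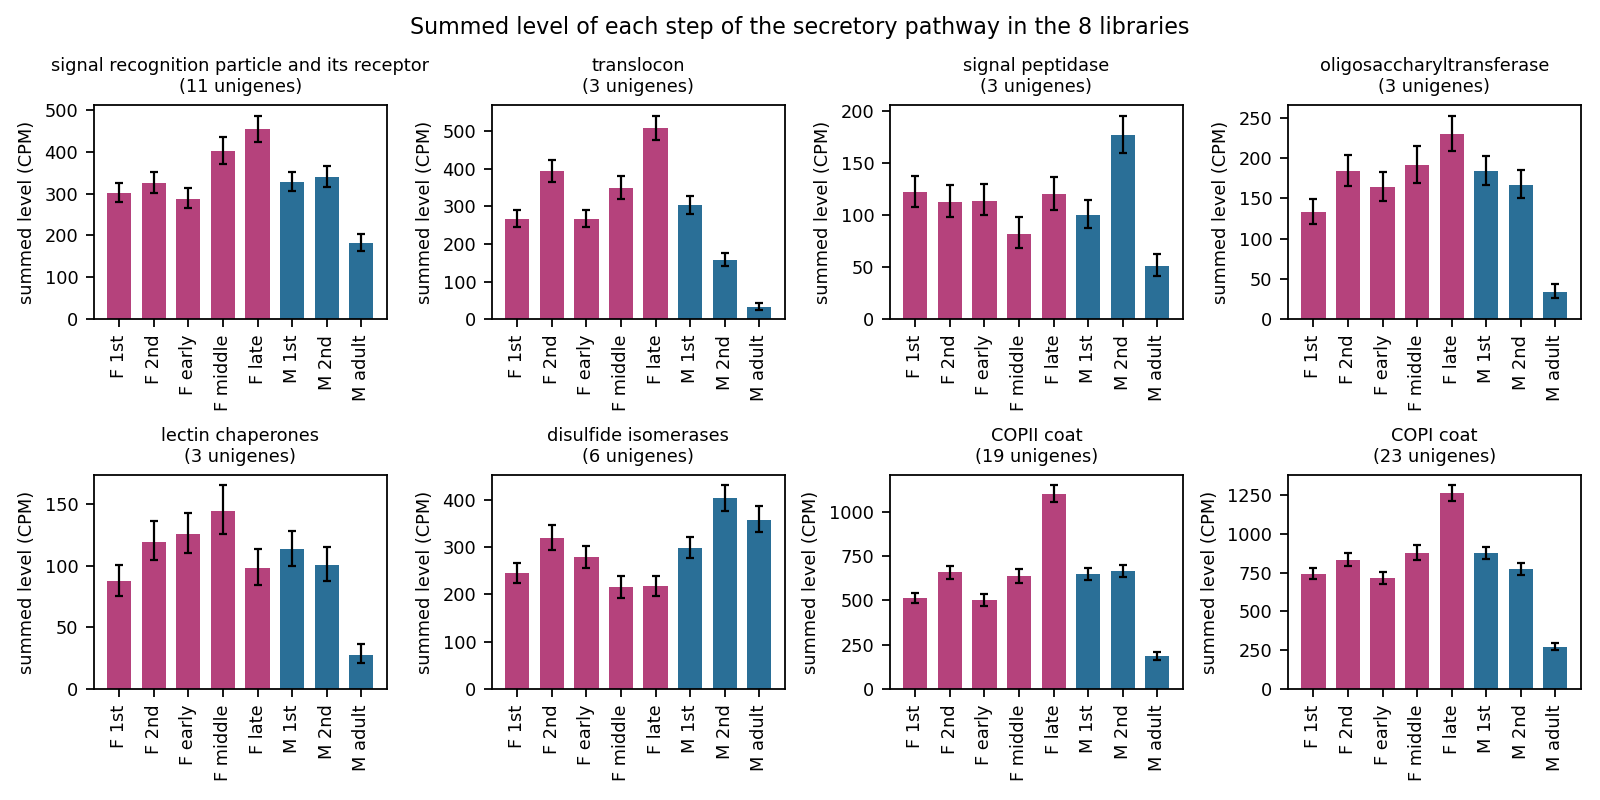
Summed level in CPM (vertical axes, each from 0) of the unigenes of each step in the 8 libraries, females in pink and males in blue, with bars for exact 95% counting intervals. The adult male bar is the lowest in 7 of the 8 panels and the exception is the disulfide isomerases.

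Between adults, a unigene was called different at 2-fold when log2 of the ratio, with 1 CPM added to each level, was at least 1 in size for each of the 3 female stages against the male, with at least 20 reads in either library. Among members 58 could be compared, of which 40 were higher in females and 2 lower. The same rule called 27.6% of all matched unigenes higher in females and 12.2% lower. At 4-fold, 14 members were higher and 1 lower, beside 9.58% and 5.52% of matched unigenes. The median log2 ratio, of the female stages over the male, was 1.83 for the members compared, 0.49 for matched unigenes and 0.06 for all unigenes. The 13 members left out had too few reads in at least 1 of the pairs. TMM scaling moved the median of all unigenes by -0.50 on the log2 scale, and under it 27 members were higher and 2 lower, beside 17.3% and 18.9% of matched unigenes. At 4-fold it left 5 higher and 2 lower of the 58, beside 5.61% and 8.33%, so the excess of members higher was smaller than with header totals.

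By step, the members higher in adult females numbered 17 of 23 compared for COPI, 9 of 13 for COPII, 4 of 8 for the SRP and its receptor, 3 of 3 for the translocon, 3 of 3 for the oligosaccharyltransferase, 2 of 2 for the calnexins, 2 of 4 for the disulfide isomerases and 0 of 2 for signal peptidase. The 2 lower members were both disulfide isomerases. Over the list of 90 unigenes named for muscle proteins, the summed level was 7926 CPM in adult males, where 1 was at 0 reads, and 1648 to 3927 CPM in adult females, where 1 to 5 were. The part of muscle RNA in the result was not tested.

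**Figure D2:**
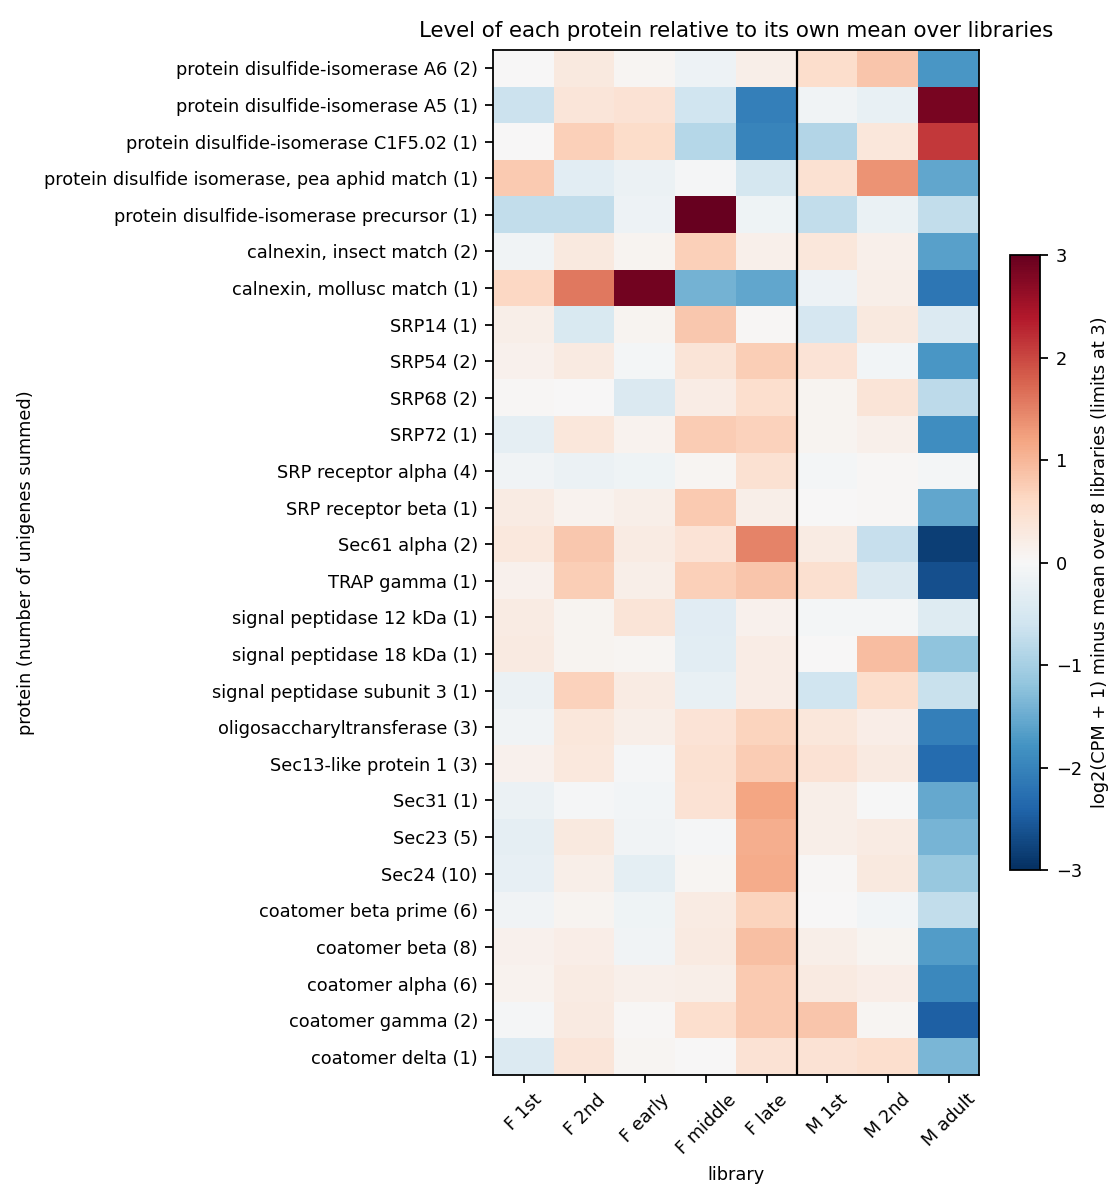
Level of each of the 28 proteins (rows, with the number of unigenes summed) in the 8 libraries (columns), as log2 of CPM plus 1 minus the protein's own mean over libraries, with the black line between females and males. The adult male column is blue for most proteins and red for disulfide-isomerases C1F5.02 and A5.

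Among the targeting proteins, SRP54 and SRP72 were lower in adult males than in every other library, while the receptor's alpha subunit was within the range of the other libraries there. SRP54, the subunit that binds the signal sequence and GTP, had 56.4 and 62.6 CPM in first- and second-instar females, 49.3, 67.8 and 86.3 CPM in early, middle and late adult females, 69.0 and 48.6 CPM in first- and second-instar males and 14.7 CPM in adult males. Its adult female to male ratios, in the order early, middle and late and with the interval of the late stage, were 3.36, 4.62 and 5.89-fold (3.90 to 9.21). SRP72, which with SRP68 forms a dimer on the particle's RNA, had 49.5 and 75.6 CPM in first- and second-instar females, 63.9, 102 and 97.6 CPM in early, middle and late adult females, 63.0 and 66.0 CPM in first- and second-instar males and 15.8 CPM in adult males. The adult male was below every other library for both, and the 3 female ratios for SRP72 were 4.06, 6.48 and 6.20-fold (4.17 to 9.51). SRP68 had ratios of 1.29, 2.04 and 2.48-fold (1.86 to 3.34), and with TMM scaling its levels were 46.4, 74.5 and 90.8 CPM in females and 52.2 CPM in males, so the direction against early females depends on the scaling. SRP14, which helps to pause translation and matched a tunicate protein, was read at 13 or fewer reads in every library, too few for a ratio.

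The alpha subunit of the SRP receptor, the GTPase that docks the particle at the membrane, had 103 and 99.1 CPM in first- and second-instar females, 102, 116 and 153 CPM in early, middle and late adult females, 107 and 115 CPM in first- and second-instar males and 106 CPM in adult males. These 8 values overlap between the sexes, and the adult ratios were 0.955, 1.09 and 1.44-fold (1.2 to 1.74). With TMM scaling the adult levels were 98.7, 114 and 152 CPM in females and 150.5 CPM in males, so the direction against middle females depends on the scaling. None of its 4 unigenes was called at 2-fold between adults. The receptor's beta subunit, its membrane anchor, had 21.4 and 19.3 CPM in first- and second-instar females, 20.1, 31.5 and 20.4 CPM in early, middle and late adult females, 17.8 and 18.3 CPM in first- and second-instar males and 5.43 CPM in adult males, and the adult male was lowest.

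The translocon showed the widest gap between adult sexes of the 8 steps. Sec61 alpha forms the channel itself, and its 2 unigenes together had 117 and 166 CPM in first- and second-instar females, 113, 127 and 265 CPM in early, middle and late adult females, 112 and 58.2 CPM in first- and second-instar males and 12.5 CPM in adult males. The adult male was lowest and the second-instar male next, with every female library above both. The adult ratios were 9.02, 10.1 and 21.2-fold (14 to 33.8). TRAP gamma, a membrane protein beside the channel, had 150.0 and 228 CPM in first- and second-instar females, 154, 223 and 242 CPM in early, middle and late adult females, 191 and 99.9 CPM in first- and second-instar males and 21.2 CPM in adult males. Its order of libraries was similar at the low end, with the adult male lowest and the second-instar male next, and its adult ratios were 7.27, 10.5 and 11.4-fold (8.24 to 16.3).

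Second-instar males also had lower translocon levels than second-instar females. Sec61 alpha was 2.85-fold (2.31 to 3.53) higher in second-instar females, from 143 and 175 reads of its 2 unigenes in the female library and 62 and 65 in the male. TRAP gamma was 2.28-fold (1.93 to 2.70) higher, from 437 and 218 reads. All 3 translocon unigenes passed the 2-fold rule there, while 0 of 18 COPII and 0 of 23 COPI members did. Among all 66 members compared at that instar, 4 were higher in females and 1 lower, beside 8.92% and 6.37% of matched unigenes. Within males, from first to second instar, the ratio was 0.522-fold (0.418 to 0.648) for Sec61 alpha and 0.522-fold (0.442 to 0.615) for TRAP gamma, so both were lower in the later library. These changes fell short of the 2-fold rule, which called 0 of the 3 translocon unigenes lower there. Over the 51 unigenes of the cuticle list, the summed level was 1349 CPM in second-instar females, with 2 at 0 reads, and 391 CPM in second-instar males, with 7 at 0 reads, and 27 of 36 compared were higher in females at 2-fold and 0 lower. The part of cuticle-forming tissue in the translocon difference was not tested.

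Of the signal peptidase subunits, the 18 kDa one was higher in males at the second instar. That subunit, which carries the catalytic site in animals, had 94.1 and 82.4 CPM in first- and second-instar females, 81.5, 62.3 and 91.7 CPM in early, middle and late adult females, 78.6 and 149.9 CPM in first- and second-instar males and 33.1 CPM in adult males. The second-instar male was the highest library, 1.82-fold (1.5 to 2.21) above the female of that instar and 1.91-fold (1.59 to 2.30) above the first-instar male, short of the 2-fold rule. The 12 kDa subunit, a non-catalytic part, had 23.2 and 20.9 CPM in first- and second-instar females, 25.7, 15.1 and 21.5 CPM in early, middle and late adult females, 18.7 and 18.8 CPM in first- and second-instar males and 14.7 CPM in adult males. Its adult ratios were 1.75, 1.03 and 1.46-fold (0.876 to 2.48), and the interval held 1 for the middle and late stages, from 22 to 51 reads in an adult library. With TMM scaling its adult levels were 24.9, 14.9 and 21.2 CPM in females and 20.7 CPM in males, which changes the direction against middle females. Subunit 3 had 6 to 19 reads in every library and no ratio is given.

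The oligosaccharyltransferase unigenes, 3 pieces or subunits under the same name, had 133 and 184 CPM in first- and second-instar females, 164, 191 and 229.5 CPM in early, middle and late adult females, 184 and 167 CPM in first- and second-instar males and 34.2 CPM in adult males in sum. The adult male was far below the other 7, which spanned 133 to 229.5 CPM, and the adult ratios were 4.78, 5.58 and 6.71-fold (5.14 to 8.88).

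The calnexin that matched insects, in 2 unigenes, had 81.4 and 107 CPM in first- and second-instar females, 93.1, 144 and 97.6 CPM in early, middle and late adult females, 110.3 and 96.7 CPM in first- and second-instar males and 27.7 CPM in adult males. Its highest library was the middle female and not the late one, and late over middle was 0.679-fold (0.554 to 0.832). Its adult female to male ratios were 3.36, 5.19 and 3.52-fold (2.57 to 4.91). A second calnexin, which matched a mollusc (Unigene156579_FOB), had 13 and 24 reads in first- and second-instar females, 65, 1 and 1 in early, middle and late adult females, 7 and 9 in first- and second-instar males and 0 in adult males. Its highest count was in early females, and the middle and late female libraries held 1 read each.

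The disulfide isomerases divided in adult males, with A6 at its lowest level there and C1F5.02 and A5 at their highest. Isomerase A6, in 2 unigenes, had 179 and 218 CPM in first- and second-instar females, 185, 159 and 201 CPM in early, middle and late adult females, 256 and 318 CPM in first- and second-instar males and 52.7 CPM in adult males. Its adult ratios were 3.52, 3.01 and 3.81-fold (3.04 to 4.81). At the second instar it was 1.46-fold (1.29 to 1.65) higher in males.

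Isomerase C1F5.02 (Unigene135574_FOB), named after a fission yeast protein, had 116 and 164 reads in first- and second-instar females, 151, 41 and 23 in early, middle and late adult females, 64 and 144 in first- and second-instar males and 419 in adult males. This is 52.7 and 85.5 CPM in first- and second-instar females, 76.0, 28.1 and 12.3 CPM in early, middle and late adult females, 27.8 and 66.0 CPM in first- and second-instar males and 228 CPM in adult males. The adult male exceeded each other library, and its level over females was 2.99-fold (2.48 to 3.63) for the early stage, 8.11-fold (5.88 to 11.5) for the middle stage and 18.5-fold (12.1 to 29.4) for the late stage. Within females it was lower in the late library than in the middle one, at 0.439-fold (0.252 to 0.75). Isomerase A5 (Unigene151934_FOB) had 13 and 25 reads in first- and second-instar females, 27, 9 and 3 in early, middle and late adult females, 21 and 18 in first- and second-instar males and 142 in adult males. Its adult male level was 5.68-fold (3.74 to 8.91) that of early females, 12.5-fold (6.41 to 27.9) that of middle females and 47.9-fold (16.1 to 235) that of late females. On the authors' RPKM, which allows levels of different lengths to be set side by side, C1F5.02 stood at 613.5 and A5 at 116 in adult males, and A6 (Unigene152247_FOB) at 69.7.

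Another isomerase (Unigene91358_FOB, a bee-matched precursor) had 0 and 0 reads in first- and second-instar females, 1, 26 and 1 in early, middle and late adult females, 0 and 1 in first- and second-instar males and 0 in adult males, and nearly all of these reads came from middle females. The pea aphid-matched isomerase (Unigene65559_FOB) had 15 and 5 reads in first- and second-instar females, 6, 5 and 4 in early, middle and late adult females, 12 and 23 in first- and second-instar males and 1 in adult males, and its second-instar male to female ratio was 4.04-fold (1.5 to 13.6). The 6 isomerase unigenes together were higher in adult males than in any female library, and their sum was 245 and 319 CPM in first- and second-instar females, 278, 214 and 217 CPM in early, middle and late adult females, 298 and 403 CPM in first- and second-instar males and 358 CPM in adult males.

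**Figure D3:**
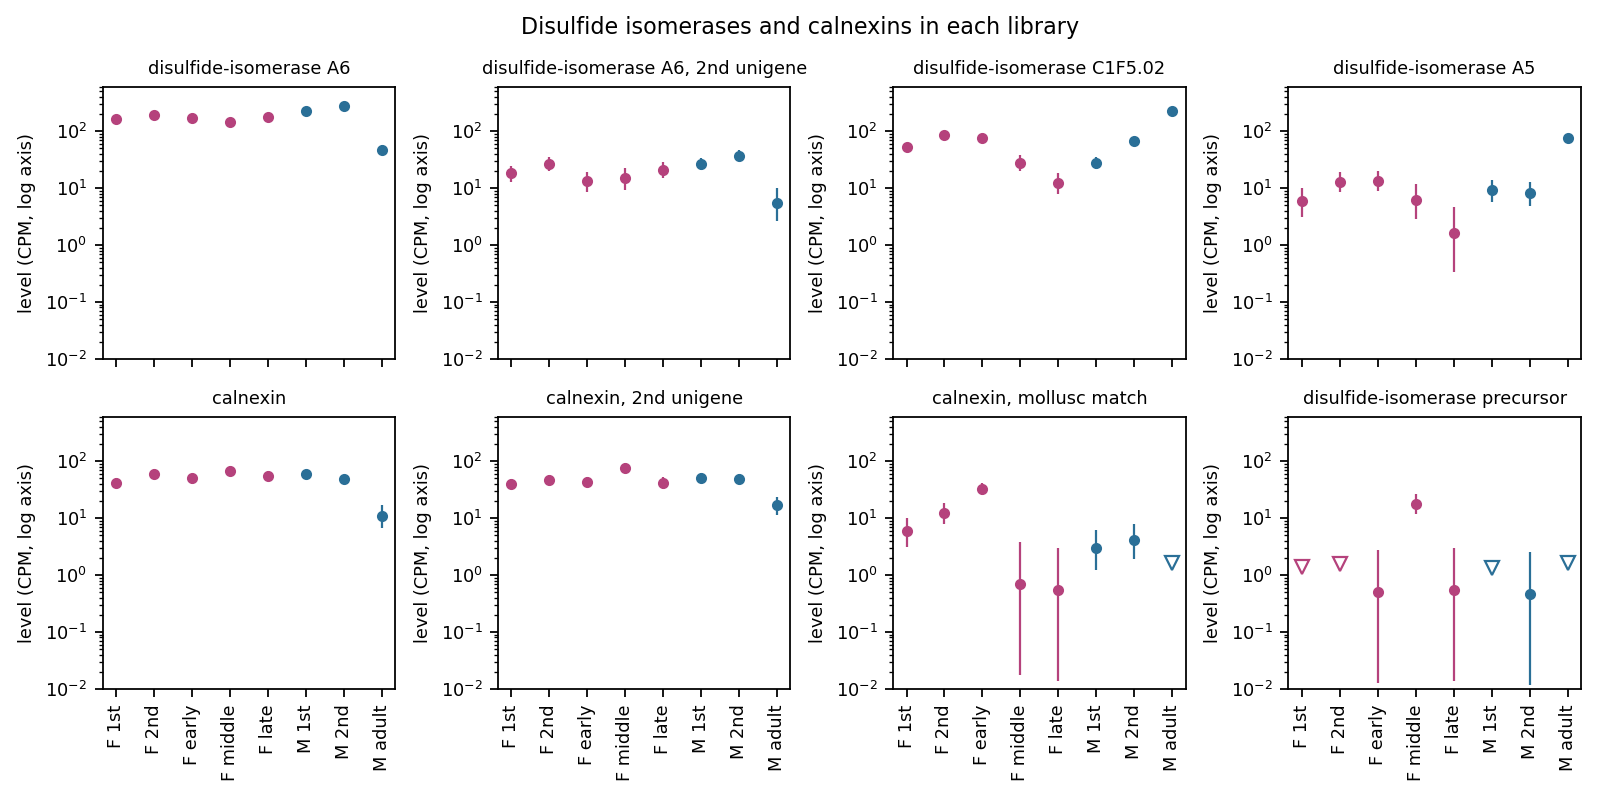
Level in CPM (log axis) of 6 disulfide isomerase and calnexin proteins in 8 unigenes across the 8 libraries, with exact 95% counting intervals, and open triangles at the floor of 3 reads for libraries with 0 reads. Isomerases C1F5.02 and A5 peak in the adult male, and A6 and the insect-matched calnexins are lowest there.

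In the COPII coat, the 4 subunits were highest in late females and lowest in adult males. Sec23, which activates the GTPase Sar1 and forms the inner coat with Sec24, had 139.5 and 204 CPM in first- and second-instar females, 155, 162 and 358 CPM in early, middle and late adult females, 189 and 199.8 CPM in first- and second-instar males and 63.0 CPM in adult males. Sec24, which selects the cargo, had 147 and 195 CPM in first- and second-instar females, 141, 182 and 374 CPM in early, middle and late adult females, 177 and 214 CPM in first- and second-instar males and 78.2 CPM in adult males. In both, the late female stood above all other libraries, and the ratio over middle females was 2.21-fold (1.90 to 2.57) for Sec23 and 2.06-fold (1.78 to 2.38) for Sec24. The adult female to male ratios were 2.45, 2.57 and 5.69-fold (4.66 to 6.99) for Sec23 and 1.81, 2.33 and 4.79-fold (3.99 to 5.77) for Sec24.

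Sec13-like protein 1, the outer-coat subunit, had 211 and 241 CPM in first- and second-instar females, 188, 267 and 327 CPM in early, middle and late adult females, 262 and 235 CPM in first- and second-instar males and 38.0 CPM in adult males. Its late to middle ratio was 1.22-fold (1.08 to 1.39), smaller than those of Sec23 and Sec24, with intervals that do not overlap theirs. Its adult ratios were 4.95, 7.02 and 8.59-fold (6.70 to 11.2). Sec31, the partner of Sec13 in the outer coat, was covered by 1 unigene and had 15.5 and 17.2 CPM in first- and second-instar females, 16.6, 24 and 41.3 CPM in early, middle and late adult females, 19.97 and 17.4 CPM in first- and second-instar males and 5.43 CPM in adult males.

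Among the coatomer subunits, the gap between adults differed from subunit to subunit. Coatomer gamma had 79.1 and 98.0 CPM in first- and second-instar females, 83.6, 116 and 141 CPM in early, middle and late adult females, 147 and 85.2 CPM in first- and second-instar males and 14.1 CPM in adult males, and adult ratios of 5.92, 8.19 and 9.99-fold (6.66 to 15.6). Coatomer alpha, a scaffold subunit, had 174 and 191 CPM in first- and second-instar females, 181, 183 and 278 CPM in early, middle and late adult females, 197 and 188 CPM in first- and second-instar males and 41.8 CPM in adult males, with adult ratios of 4.33, 4.39 and 6.65-fold (5.23 to 8.57). Coatomer beta had 269 and 284 CPM in first- and second-instar females, 229, 298 and 461 CPM in early, middle and late adult females, 280.0 and 262 CPM in first- and second-instar males and 76.6 CPM in adult males, with adult ratios of 2.98, 3.90 and 6.02-fold (5.03 to 7.25).

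Coatomer beta prime, the other scaffold subunit, had 208 and 237 CPM in first- and second-instar females, 203, 263 and 357 CPM in early, middle and late adult females, 225 and 212 CPM in first- and second-instar males and 134 CPM in adult males, with adult ratios of 1.52, 1.97 and 2.67-fold (2.30 to 3.10). TMM multiplies the library total by 0.707 in adult males and 1.03 in early females, so under it the early ratio comes close to 1. Coatomer delta, seen in 1 unigene, had 13.6 and 24 CPM in first- and second-instar females, 19.1, 18.5 and 25.2 CPM in early, middle and late adult females, 25.2 and 26.6 CPM in first- and second-instar males and 6.52 CPM in adult males, with adult ratios of 2.93, 2.84 and 3.87-fold (2.02 to 8.01). At each female stage, beta prime had the smallest ratio of the 5 subunits. The late to middle ratios were 1.55-fold (1.38 to 1.74) for beta, 1.52-fold (1.31 to 1.76) for alpha and 1.36-fold (1.19 to 1.54) for beta prime. On log2 of CPM plus 1, the late to middle ratios of the 2 gamma unigenes were 0.36 and -0.19, and that of delta was 0.43.

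From the middle to the late female stage, 9 of 65 members compared were higher and 2 lower at 2-fold, beside 11.3% and 7.74% of matched unigenes, so the share of members higher was near the background. By step, 6 of 18 COPII and 2 of 3 translocon members were higher, and 1 of 23 COPI members. The median log2 ratio was 0.46 for the members, 0.15 for matched unigenes and 0.11 for all. In the same step, the summed level of the 23 unigenes of the egg and yolk list went from 322 to 1841 CPM, with 0 of these at 0 reads in either library. Most of that rise came from 12 vitellogenin receptor unigenes among the 23, which went from 35.6 to 1306 CPM. The 4 vitellogenin unigenes of the list went from 203 to 446 CPM, and second-instar males held 320 CPM of them. Larval libraries and the early female held 174 to 382 CPM of that list and the adult male 84.7 CPM, and the part of egg tissue in the difference was not tested.

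**Figure D4:**
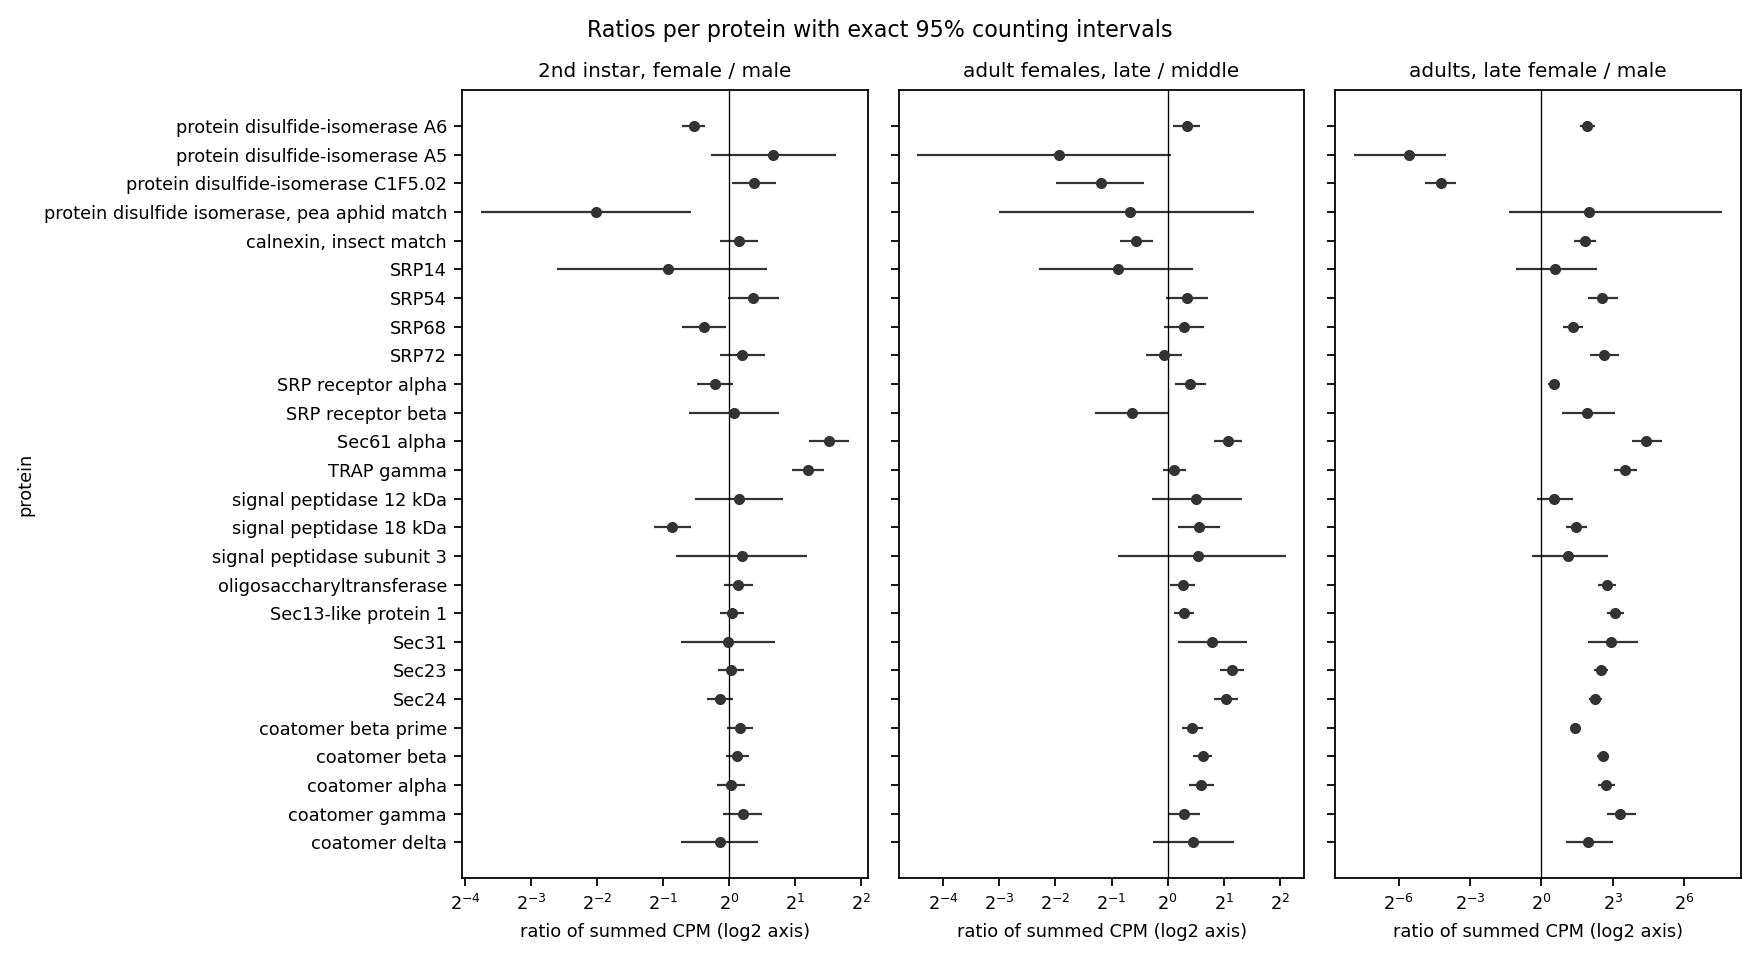
Ratio of summed CPM (log2 axis) for each protein with exact 95% counting intervals: second-instar female over male, late over middle adult female, and late female over adult male. In the left panel the translocon proteins Sec61 alpha and TRAP gamma lie above 2, and in the right panel isomerases C1F5.02 and A5 lie far below 1.

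In males, 50 of 65 members compared were lower in the adult than at the second instar at 2-fold and 2 were higher, C1F5.02 and A5, beside 42.9% lower and 14% higher of matched unigenes. The 4-fold counts were 22 and 1, beside 18% and 6.79%. The median log2 ratio was -1.69 for members, -0.78 for matched unigenes and -0.63 for all. TMM moved the median of all unigenes by 0.57 here and left 40 members lower and 2 higher at 2-fold (matched unigenes, 27.2% and 21.3%). At 4-fold it left 6 lower and 2 higher of the 65 (10.9% and 10.2%), so members were not called more often than matched unigenes. Between the same libraries the 90 unigenes of the wax and long-chain lipid list went from 1898 to 456 CPM in sum, with 15 and 48 at 0 reads and 50 of 59 compared lower in the adult, and the muscle list from 4144 to 7926 CPM, with 2 and 1 at 0 reads. Their part in the members' difference was not tested. At the first instar 0 of 63 members were higher in females and 1 lower (matched unigenes, 3.09% and 8.85%), and the step from first to second instar called 1 of 65 members higher in females and 1 higher and 2 lower of 66 in males (backgrounds 7.71% higher and 3.43% lower in females, and 7.82% higher and 12.9% lower in males). From second instar to early adult, 1 of 63 was higher in females and 0 lower (2.83% and 2.86%), and from early to middle adult 2 were higher and 3 lower (9.06% and 12.1%).

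**Figure D5:**
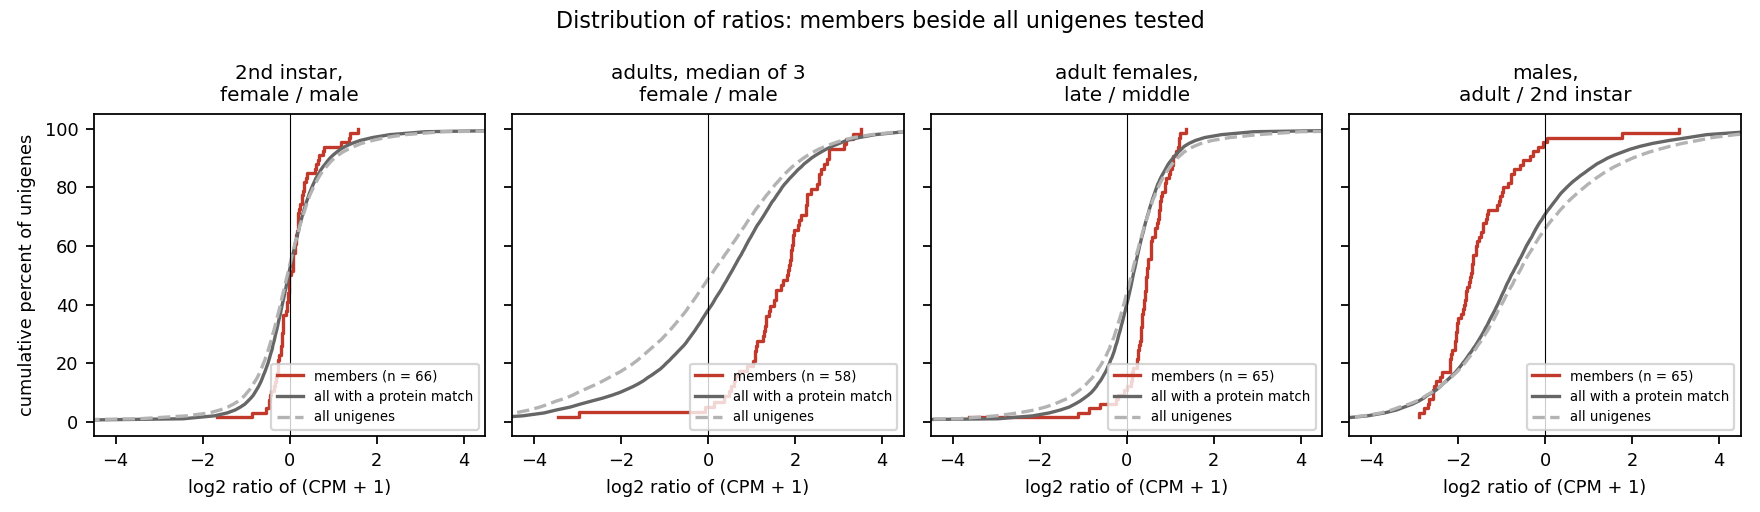
Cumulative percent of unigenes against the log2 ratio of CPM plus 1 for second-instar sexes, adult sexes, late over middle females and adult over second-instar males, with members in red, matched unigenes in solid grey and all unigenes dashed. The members' curve lies to the right in the adult panel, where its median is 1.83, and to the left in the male panel, where its median is -1.69.

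Over all 8 libraries, edgeR's quasi-likelihood test of the sex difference across stages called 0 members and 0 of 51155 unigenes at an adjusted p under 0.05. At an unadjusted p under 0.05 there was 1 of 70 members, beside 4.67% of all unigenes. The lowest adjusted p of a member was 0.886. This test looks for a difference common to the stages, and a sex difference confined to adults counts as error in it. Its 0 calls therefore do not decide whether adults alone differ. The same model called 0 members between instars and 0 between adults and larvae. Each had 0 members at an unadjusted p under 0.05, beside 1.27% of all unigenes between instars and 4.03% between adults and larvae. A test of whether the sex difference in adults differed from that in larvae, chosen after the data were seen, also called 0 of 71 members and 0 of 61335 unigenes. There 25 members were at an unadjusted p under 0.05, 23 of them relatively lower in adult males and 2 higher, beside 17.4% of all unigenes. That excess was lost when either first-instar library was left out, where members passed less often than all unigenes. The members' median log2 difference was -1.67 with all 8 libraries, -1.61 without first-instar females and -1.60 without first-instar males. With all 8 libraries, the lowest adjusted p was 0.135, for a coatomer gamma unigene (Unigene27749_FOB) at a log2 difference of -4.81 (SE 1.05). Isomerases A5 (Unigene151934_FOB, 3.92, SE 1.21) and C1F5.02 (Unigene135574_FOB, 3.67, SE 1.14) both had an edgeR adjusted p of 0.204. DESeq2 called 1 member higher, C1F5.02, and 1 lower, a Sec13-like unigene (Unigene137534_FOB), of 60 with an adjusted p. Among all unigenes it called 1109 higher and 761 lower of 27395, so members were not called more often than unigenes at large.

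Other genes of the route were followed in lists that left out the members. Among 31 unigenes of oxidative folding and glycan quality control, 13 of 16 compared were higher in adult females than males and 0 lower, and 20 of 24 were lower in adult than second-instar males, beside 27.6% higher and 12.2% lower of matched unigenes between adults and 42.9% lower between these males. STT3A, the catalytic subunit of the oligosaccharyltransferase (Unigene151491_FOB), had 113, 101 and 172 reads in early, middle and late females and 2 in adult males, a late to male ratio of 84.9-fold (23.1 to 707). Glucosidase I, under the name mannosyl-oligosaccharide glucosidase (Unigene152980_FOB), which trims the sugar tree first, had 119, 132 and 190 reads against 14. Of 41 unigenes of ER export and Golgi traffic, 9 of 27 were higher and 1 lower, near the shares of matched unigenes. Of the others, 1 of 3 ER chaperones, 1 of 5 of the unfolded protein response and 1 of 8 of ER-associated degradation were higher, with 0 lower, and 0 of 3 for further ER targeting genes. Sec63 (Unigene152808_FOB), which works with the channel, had 138, 114 and 226 reads in the 3 female stages and 124 in adult males. The lists were found by words in the match names and hold some unrelated proteins.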

How the data were processed

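RNA from 8 groups of Ericerus pela was sequenced in 1 library each, after homogenisation in TRIzol and standard Illumina library preparation, per the labels' protocols. The authors deposited, per the file headers, the count of uniquely assigned reads for each unigene, its RPKM, and its length in bases (another value). Unigenes absent from a table were taken as 0. The deposited RPKM was recomputed from count and length to within 2.31e-09 of its value, and was used otherwise only for levels set beside each other across lengths. For the aligner, assembler, strand setting and database, the sources used here give no name.

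Groups followed the titles. Levels are CPM, counts scaled to the header total. The members and the gene lists were chosen with earlier results of these data known. Pair comparisons used the 2-fold and 4-fold rules on log2 of CPM plus 1, with 20 reads or more in either library, and had no test. Ratios carry exact conditional binomial intervals of 95%, for counting error only. The test across stages was edgeR 4.0.16's quasi-likelihood test (glmQLFit, glmQLFTest, filterByExpr, TMM, Benjamini-Hochberg adjustment at 0.05) on all 8 libraries with sex and stage, with 51155 unigenes tested on 4 residual degrees of freedom. A model with an adult-male term (61335 unigenes, 3 residual degrees of freedom) was chosen after seeing the data. In both, the spread among stages stands in for replicates. DESeq2 1.42.0 was an alternative. Unigenes were named by a rule: in each step the 3 members of highest mean CPM, every member past the 4-fold rule in any comparison and every member called in a test across stages, and in each list the unigene of highest mean CPM and those past 4-fold between the sexes. The others were chosen after their values were seen. Not every unigene that met the rule is named in the text. No unigene of the ER export, unfolded protein response and ER-associated degradation lists is named, so those named from the lists are examples.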

Additional observations from a re-analysis of the deposited data

Results flagged for a closer look

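The COPII coat and the SRP with its receptor had sex ratios on opposite sides of 1 in larvae and adults. For COPII the log2 ratio of summed levels, female over male, was -0.34 at the first instar and -0.02 at the second, and 1.44, 1.78 and 2.57 at the 3 adult female stages. For the SRP and its receptor it was -0.12 and -0.06 in larvae and 0.66, 1.14 and 1.32 in adults. Of the 4 larval ratios, that of COPII at the first instar, 0.790 (0.731 to 0.855), had an interval below 1, and the other 3 were within counting error of 1. Matched unigenes at large also leaned to males at the first instar, with a median log2 ratio of -0.26 and 68.1% below 0. With TMM scaling the COPII sums there were 492 CPM in females and 589 CPM in males. The difference between adults and larvae was not tested for these sums.

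Counted by unigene, 25 members had ratios on opposite sides of 1 in both larval and all 3 adult comparisons, which is 35.2% of members beside 23.7% of matched unigenes. In 24 of them the male was higher in larvae and the female in adults. Per unigene, the edgeR test of that difference called 0 members, with the lowest adjusted p at 0.135.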

How the results depend on the processing

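No paired analysis was possible because each group held replicate number 1 only. Over 118 comparisons of main results with their alternatives, 93 stayed within the tolerance (a count within 1.5 times, a value within its interval) and 25 moved beyond it. With TMM scaling, the 4-fold counts fell to 7 in adults and 8 between adult and second-instar males, and the mean female adult over male ratio was 2.81 for COPII, 2.43 for COPI, 1.44 for signal peptidase, 1.45 for the SRP and its receptor, 7.76 for the translocon, 3.96 for the oligosaccharyltransferase, 0.459 for the disulfide isomerases and 3.08 for the calnexins. On header totals, without TMM, the mean ratio without the most abundant member was 1.51 for signal peptidase, 1.76 for the SRP and its receptor and 0.230 for the isomerases. With all members, the header-total log2 ratios at the early, middle and late stages were 1.16, 0.69 and 1.23 for signal peptidase. They were 0.66, 1.14 and 1.32 for the SRP and its receptor, and -0.36, -0.74 and -0.72 for the isomerases. The count between first-instar sexes was 0 with TMM and 0 with 5 CPM added, and between female instars 0, 0 and, with no read minimum, 2. From second instar to early female it was 2 with no read minimum and 0 with arthropod matches only. With 5 CPM added it was 3 from early to middle females and 1 between male instars. These counts join higher and lower members. No share of matched unigenes under the same settings is given beside them, so they cannot be read against a background. The adult-male term called 2 members with DESeq2, beside 1109 higher and 761 lower of 27395 unigenes. With no filter on low counts it called 5 members, beside 2478 higher and 2386 lower of 147509 unigenes. Leaving out each library in turn, it called 0 to 4. The 4 came without early adult females, beside 2821 higher and 1238 lower of 60029 unigenes. The term's log2 value reversed for the 12 kDa signal peptidase (-0.27, header totals), for signal peptidase subunit 3 (-0.31 to 0.110 leaving out each library) and for an SRP receptor alpha unigene (0.035 with DESeq2 size factors, and -0.22 to 0.216 leaving out each library). The cause was not tested. Depth limits members under about 20 reads.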

Other observations

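Endoplasmin (Unigene145611_FOB), the ER form of the Hsp90 chaperone, and a protein like FKBP59 (Unigene113844_FOB), of the prolyl isomerase family, were both higher in second-instar males than in females of that instar. Endoplasmin had 304 reads in second-instar females and 632 in second-instar males, a female over male ratio of 0.547 (0.476 to 0.629), and the FKBP59-like unigene had 31 and 170 reads, a ratio of 0.208 (0.137 to 0.306). From second-instar to adult males endoplasmin went from 632 to 39 reads, a ratio of 0.0731 (0.0515 to 0.101). Endoplasmin had 235, 117 and 228 reads in early, middle and late females.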
